A study of Sus scrofa with 2 samples.

Results

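Cytosolic ribosomal protein genes encode the proteins of the 40S (small) and 60S (large) subunits of the ribosome, which decode mRNA and join amino acids. Each subunit holds 1 copy of nearly every protein, so the genes are expressed together, and many of their mRNAs start with a C followed by a run of pyrimidines (a 5′ terminal oligopyrimidine start) through which growth signalling controls their translation. The acidic stalk proteins RPLP1 and RPLP2 are an exception in number: pairs of them sit on RPLP0 at the side of the 60S subunit and recruit the elongation factors. In skeletal muscle, ribosome content sets the capacity for protein synthesis, and slow fibres are known for a higher rate of protein turnover than fast fibres.

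Members were taken by symbol: RPL, RPS or RPLP with a number and at most a letter A or X, and RPSA. The deposited gene list held 46 such genes of 31780, 24 of the 60S and 22 of the 40S subunit. RPS24 and RPLP1, together with RPS29, RPL14, RPS7 and RPL23A, carried no symbol in the files and were named through a reference table of the same assembly. These 6 genes were analysed beside the 46 and are kept out of their counts, unless a count of 52 is given. All 52 passed the filter on low counts in every comparison.

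The samples were 2 cryosections of psoas major, a muscle of the loin, from female Landrace pigs whose age was not given. There was 1 group with no treatment, and the 2 sections came from muscle of 2 pigs and lay on separate capture areas of the same slide, so that pig and section cannot be told apart. Visium slides carry barcoded spots that capture polyadenylated RNA from a small region of tissue, which can hold parts of several fibres and of the tissue between them, and each captured molecule is counted as a unique molecular identifier (UMI). Porcine carrier RNA was added to the libraries, and the sources used here do not say what became of its reads. After filters on mitochondrial RNA and low UMI counts, 2430 spots with 3600323 UMIs were kept in section 1 and 2878 spots with 5371312 UMIs in section 2, with medians of 928.5 and 1350.5 UMIs per spot. The sections shared 2104 spot barcodes, which mark positions and not cells. Muscle fibre markers, 9 of 9 in the gene list, summed to between 154777 and 218982 counts in 1000000 UMIs (CPM) in every group of spots, whereas PAX7 and MYF5 of satellite cells never exceeded 2.72 CPM together, and LYZ and LEP were at 0.

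The 46 genes together gave 164242 UMIs in section 1, 4.56% of all UMIs, and 242649 UMIs in section 2, 4.52%. Per spot, the median share was 4.51% and 4.46%, with the 10th and 90th percentiles at 3.27% and 6.33% in section 1 and at 3.37% and 6.16% in section 2. Only 2 and 3 spots held no UMI of any of them. The share was therefore nearly the same in both pigs, and single genes were too: the ratio of section 2 to section 1 ran from 0.886 for RPLP2 to 1.1 for RPS18. Levels of the 46 genes in section 1 ranged from 130 CPM for RPL3 through a median of 825 CPM to 3016 CPM for RPL10. These are counts at the 3′ end, not per length. Ribosomal protein genes have many processed copies in mammalian genomes, and reads that match more than 1 gene are not counted by Space Ranger, so differences in level between genes are uncertain and are not interpreted.

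The starts of 9 genes are shown because the genes carry the results below and because the start is the feature that ties many of them together. Each line gives 10 bases before the annotated RefSeq transcript start of Sscrofa11.1 and the first 15 bases of the transcript, so that base 11 is the start. Capitals mark the pyrimidine run where the transcript begins with C and 4 further bases that are each C or T, searched on the transcript strand only.
RPLP2: gcgccggcgtCTTCCTTTCTgtccc
RPLP0: tacagccctcCTCTCgccaggcgtc
RPLP1: gctgcgcgcaggcgcgaggaatccc
RPL10: gtgggagcgcCTCTTTTCCTTCggc
RPL23: ttcttacttcCTTTTCgtccttgtc
RPL7: gcgctaacttCCTCTTTCCCggctg
RPL28: tgtctctttccgtctccggccgccg
RPS24: cccccacgtcggaaccgcccggggt
RPL3: tctgggatttatatatcgcacgcct

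Such a start was annotated for 14 of the 52 genes (26.9%) and for 587 of 19508 other protein-coding genes (3.01%). RPLP2, RPLP0, RPL10, RPL23 and RPL7 had it, and RPLP1, RPL28, RPS24 and RPL3 did not at the annotated base. RPLP2 lies at chr2:507891-509818 on the plus strand with 5 exons, RPLP1 at chr1:167296084-167298264 on the plus strand with 4 exons, and RPLP0 at chr14:40219196-40223943 on the minus strand with 8 exons. RPS24 lies at chr14:80473867-80480818 on the plus strand and RPL3 at chr5:8922697-8929768 on the plus strand. None of these 5 overlapped another annotated gene. RPS2, which overlaps RNF151 and NDUFB10 on the other strand, did.

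The first comparison asked how ribosomal protein genes differ between spots of slow and fast fibres. Spots with at least 5 UMIs of MYH7 (slow myosin heavy chain), MYH2 and MYH4 (fast chains) were placed into 6 bins by the MYH7 share of these UMIs, with limits at 0.1, 0.3, 0.5, 0.75 and 0.95. In section 1 the 46 genes held 4.88%, 4.82%, 4.85%, 4.47%, 4.42% and 4.47% of UMIs from the lowest to the highest bin. In section 2 they held 4.98%, 4.84%, 4.63%, 4.43%, 4.34% and 4.50%. The 95% Wilson intervals of the lowest bins, 4.74% to 5.02% and 4.87% to 5.09%, did not meet those of the highest, 4.42% to 4.51% and 4.45% to 4.55%; these cover counting error only. The share of mitochondrially encoded RNA in the same bins went from 9.88% to 19.8% and from 9.38% to 19.1%. With that RNA left out of the total, the ribosomal protein share was 5.41% in the lowest and 5.57% in the highest bin of section 1, and 5.50% and 5.57% in section 2. For the sum of the 46 genes, the highest bin was thus below the lowest only with mitochondrial RNA in the total. This sum includes RPLP2, whose own level was higher at a high MYH7 share (below), and it does not speak for the single genes. A smaller amount of ribosomal protein RNA per fibre and a larger amount of other RNA cannot be told apart in such shares.

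**Figure D1:**
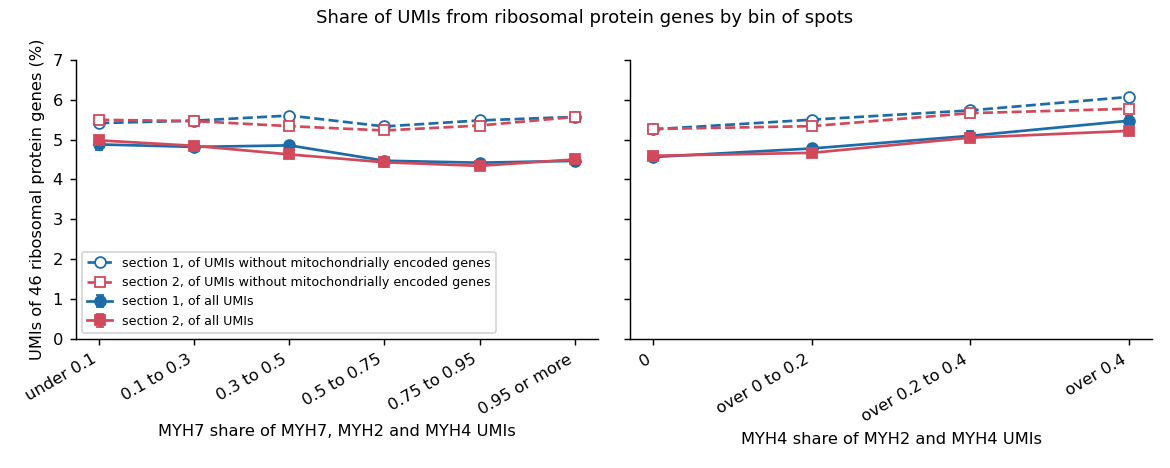
Percent of UMIs from the 46 ribosomal protein genes (vertical axis) in bins of spots by MYH7 share (left) and MYH4 share (right), per section, of all UMIs (filled points, with 95% Wilson intervals) and of UMIs without mitochondrially encoded genes (open points). Along the MYH7 share the filled points go from 4.88% to 4.47% in section 1 while the open points stay near 5.5%, and along the MYH4 share both kinds of points are highest in the last bin.

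Spot depth moved with the MYH7 share as well, since the median UMI count per spot was 496 in the lowest and 3252 in the highest bin of section 1, and 614.5 and 3509 in section 2. At matched depth, spots with an MYH7 share of 0.5 or less still had the larger ribosomal protein share of all UMIs. Among spots of 1000 to 2000 UMIs it was 4.70% against 4.41% in spots with an MYH7 share of 0.75 or more in section 1, and 4.84% against 4.27% in section 2. Among spots above 3000 UMIs it was 5.15% against 4.45%, and 4.64% against 4.39%.

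Counts were then summed per section and bin and tested gene by gene with edgeR, with the slope given as the log2 difference over the whole span of the MYH7 share from 0 to 1 and p-values adjusted over all 4710 genes. RPLP2 was higher, 21 of the 46 genes were lower (45.7%) and 24 were not called, with a median slope of -0.24 against -0.00048 for all genes. Over all genes, 13.9% were called higher and 13.2% lower. Scaling by the number of spots moved most genes up, with 4474 of 4710 called higher, and the 46 genes then had a median of 2.16 against 2.31 for all genes. Relative to UMI totals without mitochondrially encoded genes and without TMM scaling, 8 were higher and 6 lower (median 0.024, against 0.25), beside 907 and 339 of 4668 genes. With mitochondrially encoded genes left out and TMM kept, 1 was higher and 21 were lower (median -0.26, against -0.017), beside 629 and 637 of 4668 genes. The median of the 46 genes was below that of all genes on each of these scales. A change of scale moves all genes nearly alike, so this order is not further evidence. The sign of a slope depended on the scale. In spots of 1000 to 3000 UMIs 4 were lower, beside 215 of 2047 genes tested (median -0.15, against 0.016). At this depth the share of the 46 genes called lower was thus not above that of all genes. Without section 1 the number was 10, beside 376 of 4597 genes, and without section 2 it was 6, beside 258 of 3285. Of the 60S genes 13 of 24 were lower, and of the 40S genes 8 of 22. Among the 6 genes named through the reference table, RPLP1, RPL14 and RPS7 were lower, RPS29 was higher, and RPS24 and RPL23A were not called.

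The stalk genes showed the widest contrast. RPLP2 had 1231, 1627, 1716, 1887, 2308 and 2672 CPM from the lowest to the highest MYH7 bin of section 1, and 1147, 1338, 1430, 1715, 2195 and 2447 CPM in section 2. Each bin was above the one before it in both sections. The fitted slope of RPLP2 was 1.02 ± 0.11 (log2, SE; 2.02-fold; edgeR adjusted p = 1.1e-09), 0.97 in section 1 and 1.06 in section 2 alone. It was positive and past the threshold under every alternative that was run, from 0.66 for the contrast of classes to 3.43 relative to the number of spots, and it was 1.28 without mitochondrially encoded genes and TMM.

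RPLP1, which forms pairs with RPLP2, went the other way. Its levels were 7353, 6998, 6139, 4962, 4181 and 4270 CPM in section 1, and 7355, 6780, 5866, 5059, 4224 and 4038 CPM in section 2. Its slope was -1.0 ± 0.10 (edgeR adjusted p = 1.28e-10), and only scaling by the number of spots turned it, to 1.45. RPLP0, the base of the stalk, had 1408 CPM in the lowest and 1105 CPM in the highest bin of section 1 and 1545 and 1074 CPM in section 2, with a slope of -0.53 ± 0.11 (edgeR adjusted p = 0.000306; 1.89 relative to the number of spots). The RPLP0 call was lost without section 2 (-0.47, edgeR adjusted p = 0.053), in spots of 1000 to 3000 UMIs (-0.30) and with no filter on low counts (-0.33).

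A ratio of genes within the same spots does not depend on the scaling. In section 1 there were 0.167 RPLP2 UMIs for each RPLP1 UMI in the lowest MYH7 bin (95% counting interval 0.137 to 0.205) and 0.626 in the highest (0.593 to 0.660). In section 2 the ratio was 0.156 (0.132 to 0.184) and 0.606 (0.571 to 0.643). It increased at each step between bins in both sections. The ratio of RPLP2 to RPLP0 went from 0.874 (0.678 to 1.13) to 2.42 (2.24 to 2.61) in section 1 and from 0.742 (0.608 to 0.907) to 2.28 (2.09 to 2.48) in section 2.

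**Figure D2:**
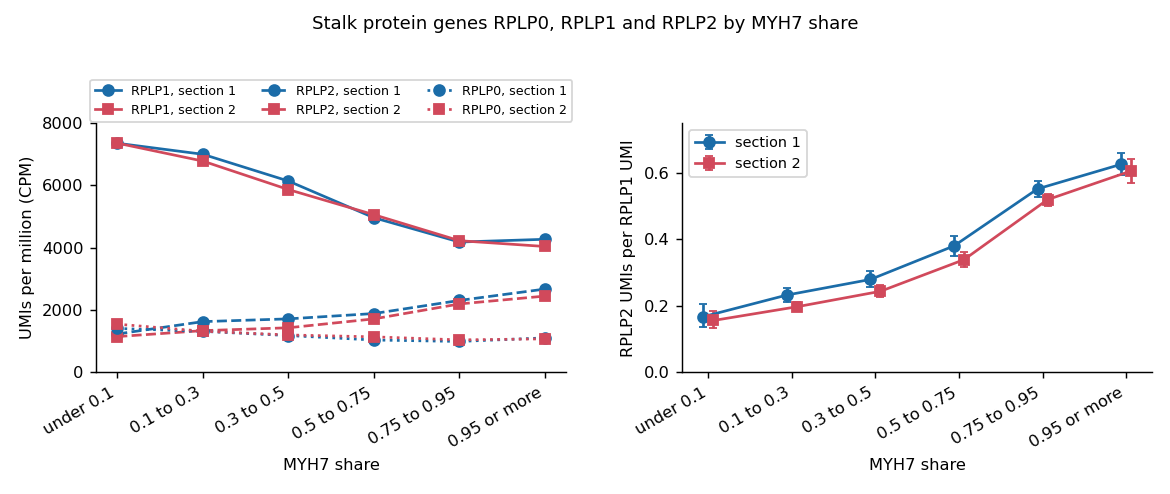
Left, levels of RPLP0, RPLP1 and RPLP2 in CPM (vertical axis) in 6 bins of MYH7 share (horizontal axis), per section. Right, RPLP2 UMIs per RPLP1 UMI with 95% counting intervals, which went from 0.167 to 0.626 in section 1 and from 0.156 to 0.606 in section 2.

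RPS24, a 40S protein needed to process the precursor of 18S rRNA, did not follow RPLP2 beyond its error. Its levels did not follow the order of the bins in either section, with 610, 799, 763, 647, 863 and 842 CPM in section 1 and 769, 782, 705, 737, 848 and 880 CPM in section 2. The slope was 0.21 ± 0.13 with a 95% interval of -0.047 to 0.47 (edgeR adjusted p = 0.24), and with UMI totals without mitochondrially encoded genes and TMM it was 0.47 (edgeR adjusted p = 0.0012). RPS29, a small zinc-binding protein of the 40S subunit, had a slope of 0.30 ± 0.11 (edgeR adjusted p = 0.042), a call that was lost without either section, in spots of 1000 to 3000 UMIs and without mitochondrially encoded genes.

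Outside the stalk, the genes that fell most belonged to both subunits. By the number of spots their slopes were between 1.72 and 1.80, below the median of 2.31 for all genes. RPL28, a 60S protein without a bacterial counterpart, fell from 1663 to 990.5 CPM between the lowest and the highest bin in section 1 and from 1463 to 999 CPM in section 2 (slope -0.71 ± 0.10). RPL10, which joins the 60S subunit late and sits near the peptidyl transferase centre, fell from 4092 to 2820 CPM and from 4162 to 2732 CPM (slope -0.65 ± 0.11). RPL23, at the face where the subunits meet, fell from 943 to 464 CPM and from 680 to 562 CPM (slope -0.65 ± 0.12). RPS2, at the mRNA entry side of the 40S subunit, fell from 1830 to 1192 CPM and from 1992 to 1322 CPM (slope -0.66 ± 0.11). For RPL28 and RPL10 each of the 3 bins below a share of 0.5 was above each of the 3 bins from 0.5 up, in both sections. The edgeR adjusted p of these 4 genes lay between 4.02e-07 and 2.45e-05, and in spots of 1000 to 3000 UMIs the calls of RPS2 (-0.29) and RPL10 (-0.27) were lost.

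The other lower genes along the MYH7 share were RPL3, RPL29, RPL35, RPL22, RPL7, RPL5, RPL15, RPL31 and RPL37 of the 60S subunit and RPS21, RPS3A, RPS16, RPS25, RPS27A and RPS12 among those of the 40S subunit, besides RPLP0. Their slopes lay between -0.59 (RPL3) and -0.28 (RPL37). The 24 genes without a call had slopes between -0.27 (RPS13) and 0.24 (RPS3), and those above 0 included RPL39, RPS20, RPL4, RPS18 and RPS3.

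The genes nearest to 0 were RPL11, RPL21 and RPL10A, with slopes of -0.0022, -0.0072 and -0.045. RPL11, which with RPL5 carries 5S rRNA into the 60S subunit, had between 570 and 831 CPM in all 12 sums, and its 95% interval of -0.24 to 0.24 just reaches the median slope of the 46 genes. RPL5 itself was lower (slope -0.36 ± 0.12, edgeR adjusted p = 0.024). The plot of slopes shows no gap between the lower genes and those without a call.

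**Figure D3:**
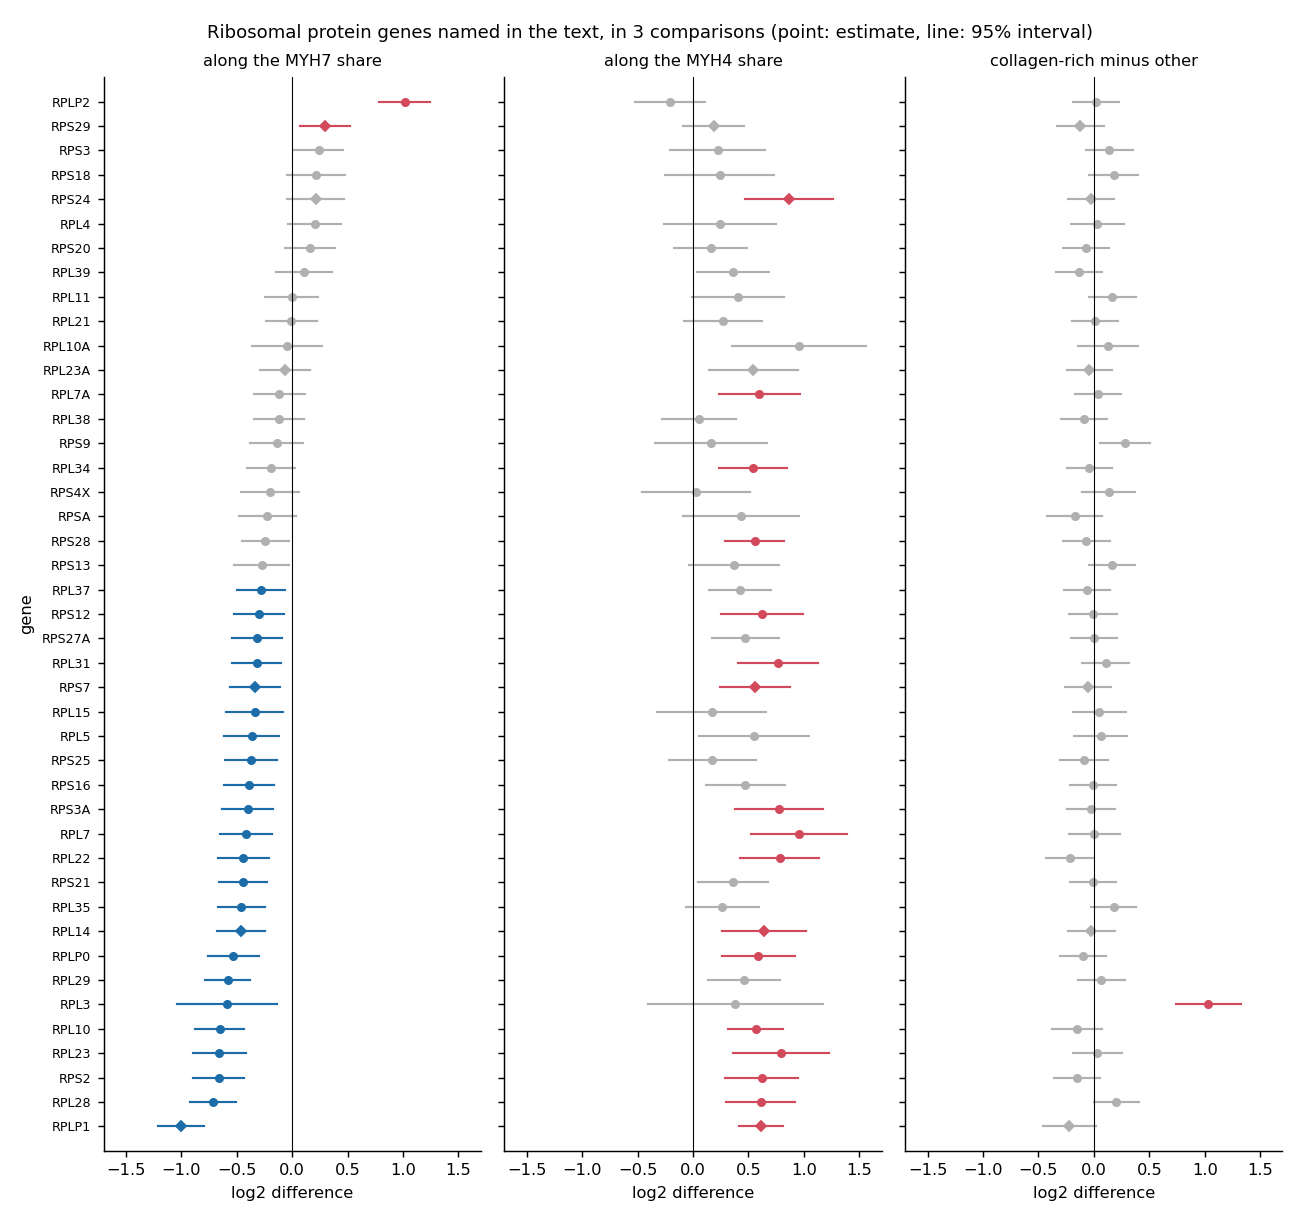
Log2 difference (horizontal axis) with 95% interval for 37 of the 46 ribosomal protein genes, those named in the text (circles), and the 6 named through the reference table (diamonds), ordered by the slope along the MYH7 share; blue and red mark lower and higher genes at an edgeR adjusted p under 0.05, grey genes were not called. Along the MYH7 share RPLP2 at 1.02 stands apart from the other genes, whose highest is RPS29 at 0.30. In collagen-rich spots RPL3 at 1.03 stands apart from the other genes drawn. Slopes along both shares are over a share from 0 to 1, a span that the MYH4 bins did not cover.

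Of the 14 genes with an annotated pyrimidine start, 9 were lower and 1 (RPLP2) was higher along the MYH7 share, with a median slope of -0.35. Of the 38 genes without it, 15 were lower and 1 (RPS29) was higher, with a median of -0.23. Hence a start of this kind was found at both ends of the order, at RPLP2 and at RPL10 and RPL23. This is a description without a test, and the class rests on the annotated first base alone. RPL37 starts with T followed by a run of pyrimidines and counts as without it. The 38 may therefore include genes whose start is annotated some bases off.

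Markers of other tissue also differed along the MYH7 share. Of 11 tested fibroblast and matrix markers 9 were lower, and their summed level was 1386 CPM in the lowest and 750 CPM in the highest bin of section 1, and 1401 and 712 CPM in section 2. The sum was not steady between them, since it reached 2297 and 1826 CPM in bins between the lowest and the highest. Of 5 tested macrophage and leukocyte markers 4 were lower, with sums between 997 and 1528 CPM. Of 3 tested adipocyte markers 2 were lower, of 5 endothelial markers 1 was higher, and of 6 smooth muscle and pericyte markers 1 was higher and 1 lower. Of 6 tested fibre markers 2 were higher and 4 lower, and the fibre sum was 218982 CPM in the lowest and 167007 CPM in the highest bin of section 1, and 216933 and 166923 CPM in section 2. The part of these markers in the ribosomal protein values was not tested. Without collagen-rich spots the same number of ribosomal protein genes, 21, was lower and 1 was higher, beside 604 and 621 of 4298 genes.

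The second comparison concerned the 2 fast myosins. Spots with an MYH7 share of 0.5 or less and at least 3 UMIs of MYH2 and MYH4 were placed into 4 bins by the MYH4 share of these UMIs: exactly 0, up to 0.2, up to 0.4 and above 0.4. The 46 genes held 4.56%, 4.78%, 5.09% and 5.47% of UMIs in section 1, and 4.59%, 4.67%, 5.05% and 5.22% in section 2. The intervals of the first bins, 4.50% to 4.63% and 4.54% to 4.65%, did not meet those of the last, 5.34% to 5.60% and 5.12% to 5.31%. Without mitochondrially encoded genes the shares were 5.26% in the first and 6.07% in the last bin of section 1, and 5.27% and 5.77% in section 2. Ribosomal protein UMIs therefore took a larger share of both totals in the bins of high MYH4 share. Mitochondrially encoded RNA went from 13.2% to 9.84% and from 12.7% to 9.61% over the same bins.

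Slopes along the MYH4 share are log2 differences over a share from 0 to 1. The pooled share reached 0.618 in the last bin of section 1 and 0.592 in that of section 2, so these slopes extend past the data. In the gene-wise test along the MYH4 share, 14 of the 46 genes were higher (30.4%), none was lower and 32 were not called. The median slope of the 46 genes was 0.43 against 0.015 over all 2284 genes tested. The shares of all genes called higher and lower were 2.32% and 2.1%. At an unadjusted edgeR p under 0.05, 27 of the 46 passed, beside 339 of 2284 genes. DESeq2 also called 0 lower and 16 higher, beside 36 and 50 of 2284 genes. The estimate was above 0 for 45 of the 46 genes, RPLP2 being the exception, against 1157 of 2284 genes. Relative to the number of spots 0 of the 46 genes were called and the median was -0.53, with that of all genes at -0.92. Since such scaling moves all genes nearly alike, the order of these medians is not further evidence. The count was 4 without section 1, beside 32 of 2839 genes, and 1 without section 2, beside 5 of 1674. It was 18 without collagen-rich spots, beside 66 of 2025 genes. In spots of 1000 to 3000 UMIs it was 1, beside 27 of 1475 genes, with a median of 0.40 against -0.031. At this depth the share of the 46 genes called higher was thus near that of all genes. Of the 24 genes of the 60S subunit 9 were higher, and of the 22 of the 40S subunit 5. Of the 6 genes without a symbol in the files 4 were higher, RPS24, RPLP1, RPL14 and RPS7.

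RPS24, not called along the MYH7 share, was among the genes with the largest slopes here. It had 669, 804, 782 and 949 CPM from the first to the last MYH4 bin of section 1, and 637, 755, 881 and 930 CPM in section 2. The last bin was the highest and the first the lowest in both sections. Over a share from 0 to 1, which extends past the data, the slope was 0.87 ± 0.20 (1.82-fold, edgeR adjusted p = 0.0035). It was 0.67 in section 1, where it was not called alone, 0.99 in section 2, and -0.17 relative to the number of spots.

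RPL7, a 60S protein, had 520, 543, 662 and 856 CPM in section 1 and 536, 553, 707 and 667 CPM in section 2 (slope 0.96 ± 0.22, edgeR adjusted p = 0.0035). It was not called with either section alone or in spots of 1000 to 3000 UMIs (0.45). RPL22, a 60S protein that also binds other RNAs, had 775, 861, 910.3 and 1150 CPM in section 1 and 868, 919, 1017 and 1105 CPM in section 2 (slope 0.78 ± 0.18, edgeR adjusted p = 0.0035). Its levels increased at each step in both sections, although it too was not called with either section alone. RPS3A, at the mRNA exit side of the 40S subunit, had a slope of 0.78 ± 0.20 (edgeR adjusted p = 0.010), which was not called without section 2 (0.56).

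RPL23 had 571, 607, 752 and 1024 CPM in section 1 but 642, 725, 728 and 701 CPM in section 2. Its slope of 0.79 ± 0.22 (edgeR adjusted p = 0.019) was 1.37 in section 1 and 0.26 in section 2, so that section 1 carried most of it. The call was lost without section 1. Relative to the number of spots RPL22, RPS3A and RPL23 had slopes of -0.19, -0.20 and -0.12, and RPL7 of 0.017.

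The stalk genes again divided. RPLP1 had 6255, 6411, 6891 and 7697 CPM in section 1 and 5974, 6231, 7043 and 7635 CPM in section 2, an increase at each step, with a slope of 0.61 ± 0.097 (edgeR adjusted p = 1.04e-05; -0.37 relative to the number of spots). Without section 2 it was 0.47 and not called. RPLP0 had a slope of 0.59 ± 0.16 (edgeR adjusted p = 0.021; -0.39 relative to the number of spots, and not called with either section alone). RPLP2 had 1714, 1600, 1565 and 1435 CPM in section 1 and 1379, 1391, 1253 and 1320 CPM in section 2, with a slope of -0.21 ± 0.16 and a 95% interval of -0.52 to 0.11 (edgeR adjusted p = 0.60). The ratio of RPLP2 to RPLP1 was 0.274 (95% counting interval 0.251 to 0.299) in the first and 0.186 (0.158 to 0.220) in the last bin of section 1, and 0.231 (0.214 to 0.249) and 0.173 (0.152 to 0.197) in section 2. The MYH7 share within these bins was not constant: it was 0.304 in the first and 0.208 in the last bin of section 1, and 0.298 and 0.222 in section 2. Its part in these differences was not tested.

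**Figure D4:**
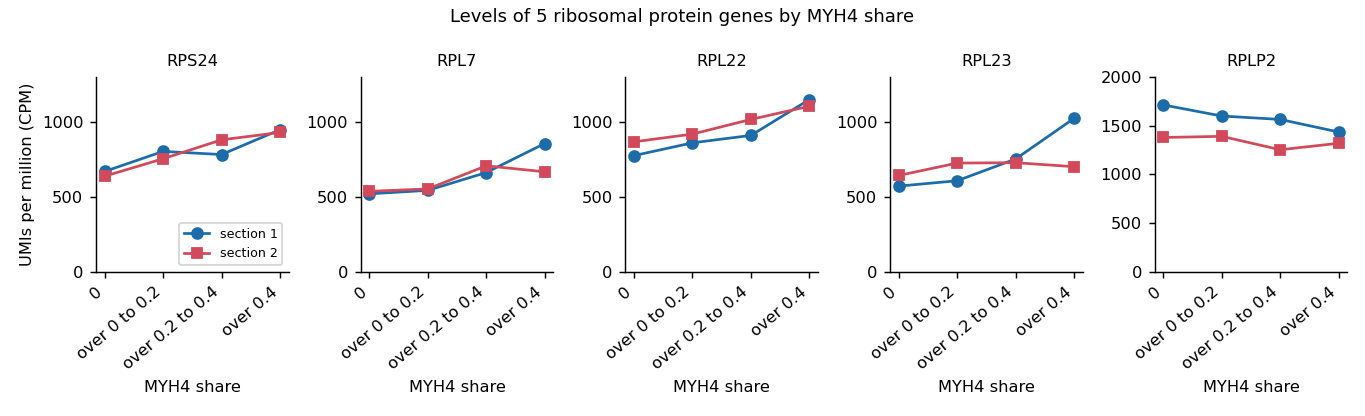
Levels of RPS24, RPL7, RPL22, RPL23 and RPLP2 in CPM (vertical axis, from 0) in 4 bins of MYH4 share (horizontal axis) per section. RPS24 and RPL22 are highest in the last bin of both sections, RPL23 reaches 1024 CPM in section 1 only, and RPLP2 is lower in the last bin (1435 and 1320 CPM) than in the first (1714 and 1379 CPM).

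The other genes called higher along the MYH4 share included RPL31, RPL28, RPL7A, RPL10 and RPL34 of the 60S subunit and RPS12, RPS2 and RPS28 of the 40S subunit, with slopes between 0.76 (RPL31) and 0.54 (RPL34). Of them RPL31, RPL28, RPL10, RPS12 and RPS2 were also among the lower genes along the MYH7 share, a comparison that draws on some of the same spots.

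At the other end, RPS4X and RPL38 had slopes of 0.027 and 0.055. RPS4X, the X-linked form of a 40S protein, had between 422 and 490 CPM in all 8 sums, with a 95% interval of -0.46 to 0.51 that includes the median slope of the 46 genes. RPL38, a 60S protein linked in mice to translation of Hox mRNAs, had between 1401 and 1832 CPM, and its interval of -0.28 to 0.39 lies below that median. RPL10A had a large estimate, 0.96 ± 0.30, that did not pass (edgeR adjusted p = 0.052). On simulated data of the same size, 13% of genes with a slope of 1 and 0% of those with 0.5 were called here. Along the MYH7 share these rates were 51% and 17%. They hold for genes drawn from all those tested and are not specific to ribosomal protein genes. How often a ribosomal protein gene with such a slope would be called was not tested, and genes without a call may still differ.

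Of 10 tested fibroblast and matrix markers 1 was higher along the MYH4 share, and their sum was 1717 CPM in the first and 2333 CPM in the last bin of section 1. The smooth muscle and pericyte sum was 487 and 663 CPM in that section, and 378 and 604 CPM in section 2.

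The third comparison set collagen-rich spots against other spots. Collagen-rich spots had at least 3 UMIs of 6 collagen genes (COL1A1, COL1A2, COL3A1, COL6A1, COL6A2 and COL6A3) and a share of these in the top 10% of their section, which gave 105 spots in section 1 and 144 in section 2. The test kept the fibre class of the spots as a term, with spots under 5 myosin UMIs as a class of their own. The collagen-rich sums of that class were small: 3192 UMIs from 6 spots in section 1 and 1712 from 3 in section 2. Collagen-rich spots were also deeper than other spots, with medians of 2090 against 876 UMIs in section 1 and 2691.5 against 1249.5 in section 2. The 46 genes held 5.25% of UMIs in collagen-rich and 4.51% in other spots of section 1, and 5.14% and 4.47% in section 2, with 95% intervals of 5.16% to 5.34%, 4.49% to 4.54%, 5.07% to 5.21% and 4.45% to 4.49%. This larger share was seen in spots with an MYH7 share of 0.5 or less (5.55% against 4.73% in section 1 and 5.70% against 4.67% in section 2) and in those between 0.5 and 0.75 (5.44% against 4.37%, and 5.55% against 4.22%). In spots with an MYH7 share of 0.75 or more it was seen in section 1 (4.74% against 4.43%) and not in section 2 (4.31% against 4.38%).

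After TMM scaling most single genes did not differ. RPL3 was among 2 genes that were higher, none of the 46 was lower, and 44 were not called, with a median of 0.031 against -0.065 over all 1606 genes tested. Over all genes, 15.3% were called higher and 12.6% lower. At an unadjusted edgeR p under 0.05, 6 of the 46 passed, a smaller share than the 613 of 1606 over all genes. DESeq2 called 4 higher and 0 lower, beside 229 and 131 of 1606 genes. The count changed with the scale. With UMI totals and no TMM 25 were higher (median 0.25, all genes 0.14), beside 368 of 1606 genes. Relative to the number of spots 45 were higher (median 0.69, all genes 0.57), beside 859 of 1606 genes. With no filter on low counts 1 was higher and 28 were lower (median -0.46, all genes -0.41), beside 260 and 897 of 14627 genes. Without either section RPL3 was the only one of the 46 genes called. Over all genes, 130 of 1503 were then higher without section 1 and 105 of 1457 without section 2. In the top 5% of spots 5 were higher and 1 lower, beside 206 and 208 of 1324 genes. Genes drawn from all those tested were recovered in 43% of simulated cases with a difference of 0.5 and in 94% with 1, rates that are not specific to ribosomal protein genes.

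RPL3, a protein of the 60S subunit that reaches to the peptidyl transferase centre, stood apart from the other members. It had 116 CPM in other and 335 CPM in collagen-rich spots of section 1 (390 and 77 UMIs), and 121 and 262 CPM in section 2 (603 and 103 UMIs). The difference was 1.03 ± 0.15 (log2, SE; 2.04-fold; edgeR adjusted p = 1.6e-09), 1.1 in section 1 and 0.93 in section 2 alone. It was positive and past the threshold under every alternative that was run, from 0.58 with no filter on low counts to 1.69 relative to the number of spots.

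RPL3L, a paralog of RPL3 made in heart and skeletal muscle and not a member by the rule, is shown beside it. It had 241 CPM in other and 256 CPM in collagen-rich spots of section 1 (811 and 59 UMIs), and 272 and 178 CPM in section 2 (1352 and 70 UMIs). With the fibre class in the model the difference was -0.46 ± 0.15 (edgeR adjusted p = 0.014), but the sections did not move alike: it was -0.077 without section 2 and -0.72 without section 1, was not called by DESeq2, in spots of 1000 to 3000 UMIs or without TMM, and was 0.22 relative to the number of spots. RPL3 UMIs per RPL3L UMI were 0.481 (95% counting interval 0.426 to 0.543) in other and 1.31 (0.930 to 1.83) in collagen-rich spots of section 1, and 0.446 (0.405 to 0.491) and 1.47 (1.09 to 1.99) in section 2. Along the MYH7 share RPL3 was lower (slope -0.59 ± 0.22, edgeR adjusted p = 0.048), with -1.1 in section 1 and -0.15 in section 2. Its level in the bins of that share was highest between 0.3 and 0.5 in both sections, at 232 and 170 CPM. RPL3L had a slope of -0.11 ± 0.16.

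**Figure D5:**
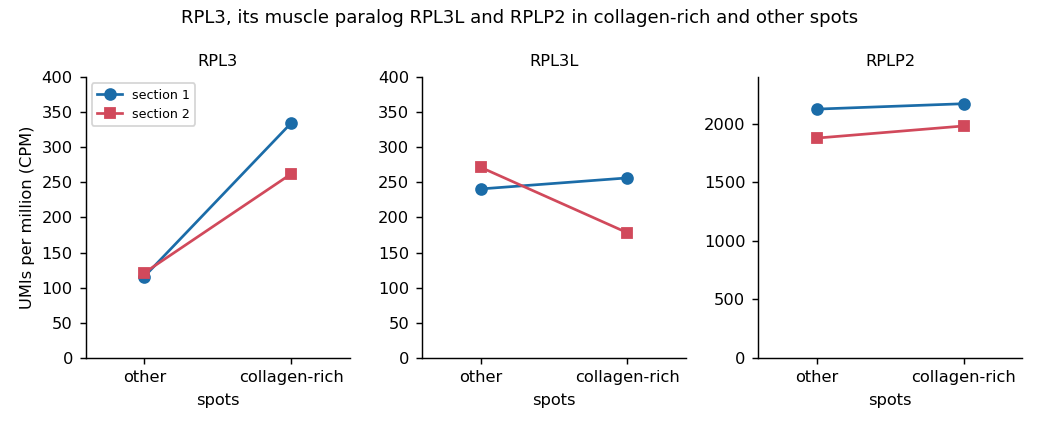
Levels of RPL3, RPL3L and RPLP2 in CPM (vertical axes, from 0, with separate scales) in other and collagen-rich spots, per section. RPL3 goes from 116 to 335 CPM in section 1 and from 121 to 262 CPM in section 2, RPL3L differs in direction between the sections, and RPLP2 lies between 1879 and 2173 CPM.

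The stalk genes and RPS24 did not follow RPL3. RPLP2 (0.023 ± 0.11), RPS24 (-0.027 ± 0.11), RPLP0 (-0.097 ± 0.10) and RPLP1 (-0.22 ± 0.12) were not called. RPL7, RPS27A and RPS12 were nearest to 0, at 0.0036, 0.0038 and -0.0095, and their 95% intervals reached from about -0.23 to 0.23. RPS27A is made as a fusion with ubiquitin. The estimates of the 44 genes without a call lay between -0.22 (RPL22) and 0.28 (RPS9).

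Other markers differed in the same spots. The summed fibroblast and matrix level was 917 CPM in other and 6001 CPM in collagen-rich spots of section 1 and 839 and 5543 CPM in section 2, which the choice of spots in part fixes, since the 6 collagen genes are among these markers. All 4 tested macrophage and leukocyte markers were higher (sums 1197 and 1999 CPM in section 1, 1085 and 1870 CPM in section 2), as were 3 of 4 smooth muscle and pericyte markers. Fibre markers summed to 176613 and 154777 CPM in section 1 and to 178363 and 157424 CPM in section 2. Their part in the values of RPL3 was not tested.

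Genes that work with the ribosome were read from lists of translation factors and related proteins. EEF1A1 and EEF1A2 encode the factor that brings aminoacyl-tRNA to the ribosome, and EEF1A2 is the form of adult muscle. EEF1A1 was lower along the MYH7 share (slope -0.83 ± 0.22), higher along the MYH4 share (0.72 ± 0.21) and higher in collagen-rich spots (1.32 ± 0.11), where it had 487 and 1630 CPM in other and collagen-rich spots of section 1 and 426 and 1331 CPM in section 2. Relative to the number of spots the first of these was 1.64 and the second -0.31, neither was called with UMI totals without mitochondrially encoded genes and TMM, and the second was not called with either section alone. EEF1A2 was higher along the MYH7 share (0.31 ± 0.11, edgeR adjusted p = 0.038, lost without either section) and not called along the MYH4 share (-0.084 ± 0.21) or in collagen-rich spots (-0.21 ± 0.11).

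The counts of the lists along the MYH7 share are to be read against 13.9% of all genes called higher and 13.2% called lower. Of 7 tested elongation genes 3 were higher and 3 lower along the MYH7 share: EEF2, the translocase that binds at the stalk, had a slope of 0.69 ± 0.15, and its inhibitory kinase EEF2K -1.91 ± 0.28 (0.47 relative to the number of spots). Of 27 initiation genes 3 were higher, with EIF3H at 1.03 ± 0.16, and 6 lower, with EIF4G2 at -1.03 ± 0.13 (1.36 relative to the number of spots). Of 17 ribosome biogenesis genes 0 were higher and 1 was lower, and of 15 growth signalling genes 0 and 2. Of 67 genes for mitochondrial ribosomal proteins, which build a separate ribosome, 7 were higher, led by MRPS6 at 3.75 ± 0.19, and 2 lower, with a median slope of 0.18.

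Of 8 tested fusion, associated and paralog genes 4 were lower along the MYH7 share, among them RACK1 of the 40S subunit (-0.43 ± 0.11; 1.98 relative to the number of spots, and not called without section 2) and RPS27L (-1.24 ± 0.17; 1.16 relative to the number of spots). Along the MYH4 share 1 of 7 elongation genes (EEF1A1) and 1 of 7 associated genes (TPT1, 0.52 ± 0.089, not called without section 2, and -0.46 relative to the number of spots) were higher and 0 were lower, and 0 of 23 initiation, 6 biogenesis, 9 growth signalling and 38 mitochondrial ribosomal genes were called, beside 2.32% of all genes called higher and 2.1% lower. In collagen-rich spots 1 of 6 elongation genes was higher and 1 lower, and 0 of 20 initiation, 4 biogenesis, 7 growth signalling, 6 associated and 21 mitochondrial ribosomal genes were higher while 2, 0, 1, 2 and 4 were lower, beside 15.3% and 12.6% of all genes.

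The 3 comparisons use the same spots, so they are not independent of each other. Since n was 2 sections, the p-values describe the spread between the sums, shared over genes, and do not speak for other animals.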

How the data were processed

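Visium libraries of 2 sections were measured. The deposited files hold raw UMI counts per gene and spot, which the authors made with Space Ranger 1.1 on a custom Sscrofa11.1 reference without the Y chromosome and with older MYH2 and MYH4 models; the labels and methods name different annotation releases, and the list of spots that the authors removed by hand was not used here. Spots above 25% mitochondrially encoded UMIs and then the 2% with the fewest UMIs were removed, and 0 columns of other samples were present. Of 15086 genes without a symbol, 796 were named by identifier from a reference table. For each section and bin the UMIs were added up, and the sums were fitted in R 4.3.3 with edgeR 4.0.16 (TMM, filterByExpr with a minimum count of 10, quasi-likelihood test, Benjamini-Hochberg at 0.05 over all genes tested), and the section was kept as a block, since all its sums come from 1 pig. MYH7, MYH2, MYH4 and haemoglobin genes, and for collagen-rich spots the 6 collagen genes, were left out of tests. Residual degrees of freedom were 9, 5 and 10 and prior ones 31.7, 47.0 and 158, so very small p-values rest on sharing between genes. Self-tests ran on simulated data. CPM are counts in 1000000 UMIs of a sum, without TMM. Intervals of shares are 95% Wilson intervals and those of ratios 95% intervals on the log scale, for counting error only. DESeq2 1.42.0, other scalings, filters, depth limits and left-out sections were tried, and those without mitochondrially encoded genes or TMM were chosen after seeing the data. Named genes in each comparison were RPLP2, RPS24, RPLP0, RPLP1, up to 5 called genes with the largest fold in each direction and the 3 nearest 0, at 50 CPM or more, among the 52 genes, and, outside them, RPL3L, RACK1, EEF1A1, EEF1A2 and called list genes. FAU was not analysed here, and values of some single members and list genes are not reported here, although they are in the counts. Any other gene was named after its values were seen. Members and lists were chosen with earlier results of these data known. Python 3.11.15 with NumPy, SciPy and Matplotlib was used for sums, intervals and plots.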

Additional observations from a re-analysis of the deposited data

How the results depend on the processing

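Alternatives were computed for 50 results. Relative to the number of spots the median of all genes moved to 2.31 along the MYH7 share, -0.92 along the MYH4 share and 0.57 in collagen-rich spots, with no filter on low counts to 0.21, -0.57 and -0.41, with UMI totals without TMM to 0.050, -0.052 and 0.14, and also without mitochondrially encoded genes to 0.25, -0.16 and 0.12. The settings without mitochondrially encoded genes or TMM were chosen after seeing the data. The causes of the changes below were not tested.

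Numbers of the 46 genes changed as follows, with those over all genes tested in brackets. Along the MYH7 share, higher genes were 46 by spots (4474 of 4710), 2 with no filter (816 of 14579), 3 with UMI totals (663 of 4710) and 8 with totals without mitochondrially encoded genes (907 of 4668). Lower genes were 0 by spots (4 of 4710), 4 with no filter (412 of 14579), 4 in spots of 1000 to 3000 UMIs (215 of 2047) and 13 with at least 10 myosin UMIs (486 of 4113). They were 13 with totals (515 of 4710), 6 with totals without mitochondrially encoded genes (339 of 4668), 10 without section 1 (376 of 4597) and 6 without section 2 (258 of 3285). Along the MYH4 share, higher genes were 0 by spots (0 of 2284), 0 with no filter (1 of 12458), 1 in spots of 1000 to 3000 UMIs (27 of 1475) and 8 with at least 10 myosin UMIs (35 of 2095). They were 7 between classes (39 of 2284), 4 with totals without mitochondrially encoded genes (23 of 2268), 4 without section 1 (32 of 2839) and 1 without section 2 (5 of 1674). In collagen-rich spots, higher genes were 4 with DESeq2 (229 of 1606), 7 with RLE factors (267 of 1606), 45 by spots (859 of 1606), 1 with no filter (260 of 14627) and 5 in the top 5% (206 of 1324). They were 1 with mitochondrially encoded genes left out (229 of 1604), 25 with totals (368 of 1606) and 20 with totals without these genes (356 of 1604). They were 1 without section 1 (130 of 1503) and 1 without section 2 (105 of 1457). Lower genes there were 28 with no filter (897 of 14627), 1 in the top 5% (208 of 1324) and 1 without the fibre class (367 of 7105). The section was the replicate block of every fit, since its sums come from 1 pig. Without the replicate block 20 genes were lower along the MYH7 share (604 of 4359), 9 were higher along the MYH4 share (33 of 2030) and 4 were higher in collagen-rich spots (215 of 1428). The share of UMIs was 5.44% without mitochondrially encoded genes.

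Signs changed along the MYH7 share by spots for RPLP0 (1.89), RPLP1 (1.45), RPL28 (1.72), RPS2 (1.77), RPL23 (1.74), RPL10 (1.80), RPL11 (2.39), RPL21 (2.40), RPL10A (2.30), EEF1A1 (1.64), RACK1 (1.98), EEF2K (0.47), EIF4G2 (1.36) and RPS27L (1.16), and in spots of 1000 to 3000 UMIs for RPS24 (-0.045), RPL21 (0.19) and RPL10A (0.046). RPL11 was 0.010 with DESeq2, 0.010 with RLE, 0.18 with no filter, 0.0036 without the block, 0.0064 with at least 10 myosin UMIs, 0.032 without collagen-rich spots, 0.058 with totals and 0.25 with totals without mitochondrially encoded genes. RPL21 was 0.0039, 0.0047, 0.18, 0.0024, 0.031, 0.032, 0.060 and 0.26 in that order. RPL10A was 0.10 with no filter, 0.14 with at least 10 myosin UMIs, 0.039 between classes, 0.010 with totals and 0.21 with totals without mitochondrially encoded genes. With a section left out RPL11 ran from -0.098 to 0.076, RPL21 from -0.12 to 0.092 and RPL10A from -0.23 to 0.19.

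Signs changed along the MYH4 share by spots for RPS24 (-0.17), RPLP0 (-0.39), RPLP1 (-0.37), RPL23 (-0.12), RPL22 (-0.19), RPS3A (-0.20), RPS4X (-0.95), RPL38 (-1.03), EEF1A1 (-0.31) and TPT1 (-0.46). RPS4X was -0.26 with no filter, -0.041 with totals and -0.14 with totals without mitochondrially encoded genes. RPL38 was -0.26 with no filter, -0.17 in spots of 1000 to 3000 UMIs, -0.0095 and -0.11 with these totals. With a section left out RPS4X ran from -0.016 to 0.015 and RPL38 from -0.081 to 0.12.

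In collagen-rich spots RPLP2 was -0.47 with no filter, -0.053 in spots of 1000 to 3000 UMIs, -0.073 in the top 5%, -0.21 without the fibre class and -0.027 with mitochondrially encoded genes left out. RPL7 was -0.48 with no filter, -0.055 without the fibre class and -0.049 with mitochondrially encoded genes left out, and RPS27A -0.52, -0.051 and -0.057. RPS12 was 0.072 in spots of 1000 to 3000 UMIs, 0.071 in the top 5%, 0.020 with DESeq2, 0.031 with RLE, 0.64 by spots, 0.021 without the block, 0.22 with totals and 0.19 with totals without mitochondrially encoded genes. RPS24 was 0.061 in the top 5%, 0.011 with DESeq2, 0.011 with RLE, 0.63 by spots, 0.012 without the block, 0.19 and 0.16 with these totals. RPLP0 was 0.62 by spots, 0.14 and 0.11 with these totals, RPLP1 0.56, 0.10 and 0.072, and RPL3L 0.22 by spots. With a section left out RPLP2 ran from -0.072 to 0.042, RPS24 from -0.18 to 0.022, RPL7 from -0.20 to 0.065, RPS27A from -0.25 to 0.11 and RPS12 from -0.14 to 0.018.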
